A study of Mus musculus with 6 samples.

Results

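The macrophage and complement C1q genes measured here are 10 genes: Tyrobp, Fcer1g, C1qa, C1qb, C1qc, Csf1r, Cd68, Mrc1, Laptm5 and Ptprc. They were found by gene symbol on an Affymetrix mouse expression array, where 19 of 45101 probe sets are annotated to 1 of them alone, out of 18193 genes with such a probe set. The samples were mouse embryoid bodies, the aggregates in which embryonic stem cells differentiate in suspension, formed from D3 embryonic stem cells and taken at day 10. In 3 samples the bodies held microspheres loaded with retinoic acid (RA), the vitamin A metabolite bound by the nuclear receptors RAR. In the 3 control samples the microspheres carried CellTracker Red, a dye, so the control is not an empty microsphere. Microspheres of both kinds were coated with gelatin, and bodies of both kinds grew in rotary culture without LIF, the cytokine that maintains stem cells. The labels give no RA dose for a sample, name 1 cell line, and speak of triplicates without saying that they were separate cultures, so the p-values rest on a spread among arrays that may be technical only. Microsphere to cell ratio and rotary speed varied in the study and are not given for each sample.

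Macrophages are phagocytes that arise early in yolk sac blood formation, and embryoid bodies can form them too. Their survival depends on Csf1r, the receptor for CSF1 and IL-34. Tyrobp and Fcer1g are membrane adaptors with an ITAM, a tyrosine motif through which activating receptors signal to the kinase Syk. C1q, the recognition molecule of the classical complement pathway, is built from the chains encoded by C1qa, C1qb and C1qc and is made mainly by macrophages.

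C1qb, Tyrobp, Cd68 and Ptprc were lower in RA bodies, C1qb and Tyrobp by the most, and no member was called higher. Levels are quantile-normalized log2(intensity + 16), and a gene is its brightest probe set with a mean over all arrays above a log2 level of 5.74, the 40th percentile. Of the 8 members above this level, 4 were lower with RA and 0 higher (limma, Benjamini-Hochberg adjusted p under 0.05 over 13608 genes), where 15.6% of all tested genes were called lower and 14.3% higher. The 4 were C1qb, Tyrobp, Cd68 and Ptprc, of which all but Tyrobp had an RA mean under the level and so passed it through the control arrays, which makes the count no support for a difference, and the other 4 were Fcer1g, Csf1r, Mrc1 and Laptm5. At an unadjusted p under 0.05, 5 were lower, Fcer1g being added, and 0 higher, where 20.3% of all tested genes were lower and 19.4% higher. The 2 members under the level were C1qa and C1qc. With no filter all 10 members entered, and 5 were lower, C1qc being added, against 11.1% of 18193 genes. The median log2 fold change, RA minus control, was -0.89 over the 8 tested members and 0.01 over all tested genes. In 6 of 10 members the 3 RA arrays all lay below the 3 control arrays, as did 18.4% of all genes. Each array measured whole bodies, so fewer cells of a type and less RNA per cell cannot be told apart.

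The upstream sequence of 4 of these genes is shown because C1qb, C1qc and Cd68 were lower with RA and Mrc1 did not pass the test, while each holds the letters GAGGAA, the core that the myeloid factor PU.1 (Spi1) binds. The sequences are RefSeq's, build GRCm38.p6, each read 5′ to 3′ on the gene's strand, and capitals mark GAGGAA or, for a match on the other strand, TTCCTC.
C1qb, chr4:136886201-136886450, minus strand: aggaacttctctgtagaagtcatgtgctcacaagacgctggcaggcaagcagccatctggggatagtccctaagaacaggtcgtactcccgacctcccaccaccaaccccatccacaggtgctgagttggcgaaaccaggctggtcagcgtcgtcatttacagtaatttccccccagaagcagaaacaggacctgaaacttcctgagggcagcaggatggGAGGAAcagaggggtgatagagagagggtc
C1qc, chr4:136892937-136893164, minus strand: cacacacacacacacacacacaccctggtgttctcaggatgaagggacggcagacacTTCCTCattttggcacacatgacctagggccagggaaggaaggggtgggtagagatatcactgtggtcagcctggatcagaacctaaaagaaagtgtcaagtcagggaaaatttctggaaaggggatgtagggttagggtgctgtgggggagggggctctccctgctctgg
Cd68, chr11:69666171-69666420, minus strand: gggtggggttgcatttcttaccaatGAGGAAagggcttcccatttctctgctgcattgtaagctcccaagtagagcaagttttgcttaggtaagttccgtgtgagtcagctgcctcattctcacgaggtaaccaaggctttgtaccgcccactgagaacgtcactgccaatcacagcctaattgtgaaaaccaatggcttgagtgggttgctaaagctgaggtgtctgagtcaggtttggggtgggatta
Mrc1, chr2:14229164-14229413, plus strand: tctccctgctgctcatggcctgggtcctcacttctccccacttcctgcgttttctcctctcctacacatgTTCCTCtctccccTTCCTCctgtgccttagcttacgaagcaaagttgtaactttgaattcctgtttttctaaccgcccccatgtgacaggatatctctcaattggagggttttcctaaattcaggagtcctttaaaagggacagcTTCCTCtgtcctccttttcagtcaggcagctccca

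The match starts at -30 in C1qb and at -225 in Cd68, counted back from the end of each window of 250 bases. On the other strand it starts at -193 in C1qc and at -180, -167 and -35 in Mrc1. In all, 7 of the 10 members had an upstream window of 250 bases in the table, Ptprc with 2 windows, and 6 of the 8 windows held GAGGAA on either strand. The window of Fcer1g and a window of Ptprc lacked it, and neither is shown. The window of Laptm5 and both windows of Ptprc, which overlap each other, lie wholly inside the annotated span of their own gene. Of these 3, 2 held the letters, against 4 of the other 5. Overlap with neighbouring genes was not checked. The last 22 bases of the C1qc window also lie inside the annotated span of C1qc and are not shown, but its position of -193 counts them. The same letters occurred in 23.3% of 32851 windows of all genes. Other motifs searched on both strands were rarer among the 8 windows. TGTGGT, a RUNX core, and AGGTCA, a nuclear receptor half-site, were each found in C1qc alone (14.0% of all windows for either motif). TTGCNNAA, for C/EBP factors, and TGACTCA, for AP-1, were found in Cd68 alone (9.56% and 4.46% of all windows), and the E-box CACGTG in none (6.02%). No matches of different motifs overlapped. A match describes letters and not a bound site.

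The C1q chains divide into a pair that was seen in control bodies and 1 that was at the bottom of the scale everywhere. C1qb is read by 3 probe sets. Its brightest, 1434366_x_at, had a deposited signal of 15.7, 22.7 and 15.5 on RA arrays 1, 2 and 3, against 120, 240 and 106 on control arrays 1, 2 and 3. Every RA value was far below every control value. After normalization C1qb averaged 5.01 ± 0.16 with RA and 7.46 ± 0.42 in controls on the log2 scale (SD, n = 3 each), a log2 fold change of -2.45 ± 0.29 (SE), or 5.45 times lower (limma adjusted p = 6.71e-05). Its RA mean lies below the filter level, so the RA level is open to background and the fold with it.

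The other probe sets of C1qb gave nearly the same difference. Probe set 1437726_x_at read 11.5, 11.4 and 18.4 on RA arrays and 119, 254 and 68.5 on control arrays. The suffix x marks sets whose probes may also match other transcripts, and set 1417063_at does not carry it. This set read 7.63, 4.98 and 3.58 on RA arrays, against 95.3, 121 and 61.6 on control arrays. Its mean lay under the filter level, and with all probe sets tested its log2 fold change was -2.45 ± 0.29 (limma adjusted p = 0.000368). With all probe sets tested, the 3 C1qb sets ran from -2.47 to -2.45.

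C1qc, the gene of the C chain, lies between C1qb and C1qa on chromosome 4. It read 6.57, 5 and 6.55 on RA arrays and 35.6, 75.9 and 46.5 on control arrays. The groups did not overlap, and only the control mean, 6.17 ± 0.36 against 4.42 ± 0.05 with RA, exceeded the filter level. With all probe sets tested the log2 fold change was -1.75 ± 0.28 (limma adjusted p = 0.00265). C1qa, the A chain gene, read 5.40, 6.52 and 5.88 on RA arrays and 3.88, 7.80 and 4.53 on control arrays. Its signal was as low in the controls, where C1qb and C1qc were seen, as with RA, so this probe set gives no measure of a difference (-0.05, 95% interval -0.32 to 0.23).

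Of the adaptor genes, Tyrobp was much lower with RA and Fcer1g did not pass the test. Tyrobp, which encodes DAP12, read 67.0, 18.1 and 90.0 on RA arrays and 235, 299 and 250 on control arrays. RA array 2 was the lowest, and the highest RA array was still far under the lowest control. Its log2 mean was 5.97 ± 0.83 with RA and 8.24 ± 0.37 in controls, a log2 fold change of -2.27 ± 0.35, or 4.82 times lower (limma adjusted p = 0.000544). Fcer1g, the common gamma chain of Fc receptors, read 51.5, 70.4 and 47.4 on RA arrays and 68.9, 106 and 86.5 on control arrays. The deposited signal of RA array 2 lay just above that of control array 1, while the normalized values of the groups did not overlap. The log2 fold change of Fcer1g was -0.73 ± 0.26, with a 95% interval of -1.30 to -0.16 (limma adjusted p = 0.0542). Fcer1g passed without control array 1 (-0.88 ± 0.28, limma adjusted p = 0.0446). With every array kept it also passed when limma was run without trend (adjusted p = 0.0415) and in the fit on means of probe sets (limma adjusted p = 0.0439).

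**Figure D1:**
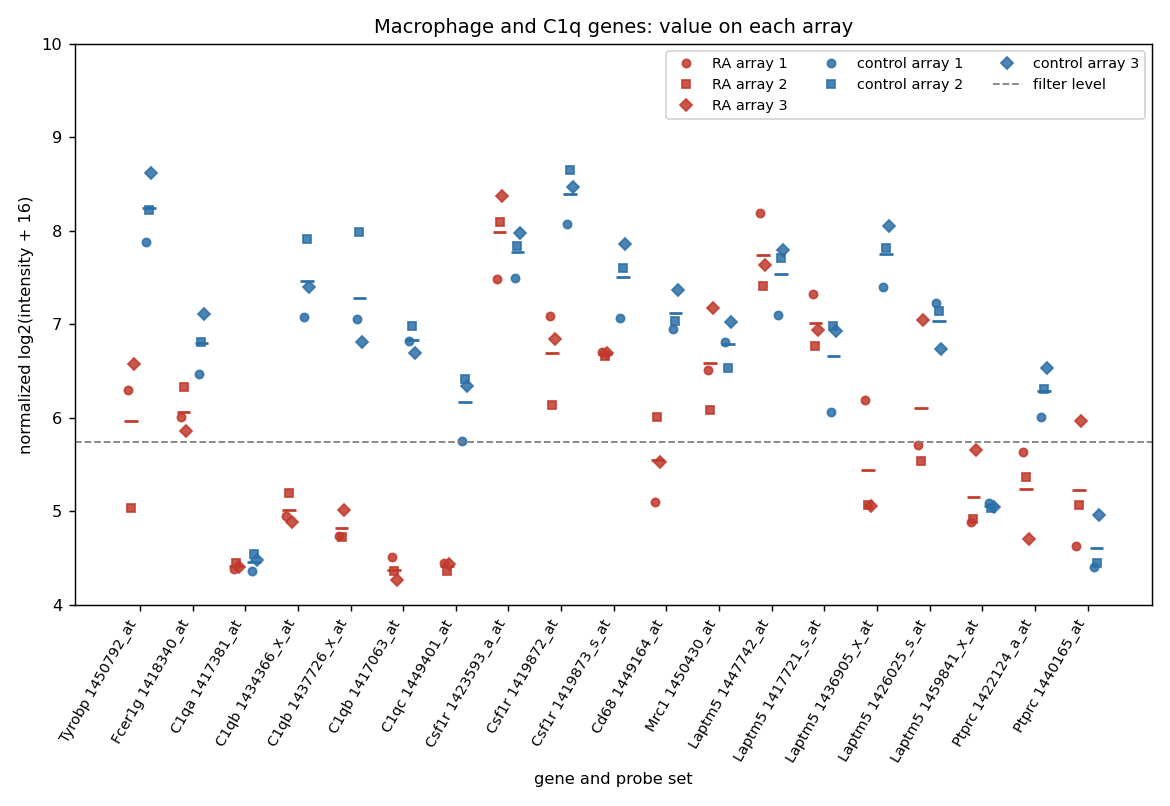
Normalized log2(intensity + 16) of the 19 probe sets of the 10 genes on each array, with RA arrays left (red) and control arrays right (blue), short bars for group means and a dashed line at the filter level of 5.74. The RA arrays lie below the control arrays in 11 of the 19 probe sets, and C1qa stays near 4.4 in both groups.

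The surface receptors did not move as 1 group. The brightest probe set of Csf1r, 1423593_a_at, read 166, 293 and 351 on RA arrays and 175, 229 and 161 on control arrays. The groups overlapped, and the log2 fold change was 0.21 ± 0.22 (limma adjusted p = 0.518). The other 2 probe sets of Csf1r went the other way. Probe set 1419872_at read 125, 59.8 and 110 on RA arrays, against 275, 402 and 226 on control arrays, and 1419873_s_at read 93.8, 93.9 and 97.6 against 120, 192 and 147. In both sets all RA values were under all control values. With every probe set above the filter tested by itself, their log2 fold changes were -1.70 and -0.82 (limma adjusted p = 0.000597 and 0.0201). The 95% intervals with all probe sets tested were -2.27 to -1.14 for 1419872_at and -0.29 to 0.71 for 1423593_a_at, and these do not overlap. The direction of Csf1r therefore depends on the probe set: with the mean of its 3 sets the gene was called lower (-0.77 ± 0.17, limma adjusted p = 0.00825). Without RA array 1 and control array 3 together it was called higher (0.57 ± 0.18, limma adjusted p = 0.0464).

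Mrc1, the mannose receptor, which some endothelial cells also express, read 80.3, 56.7 and 142 on RA arrays and 93.9, 83.7 and 81.3 on control arrays. RA arrays lay on both sides of the controls. Its log2 fold change was -0.20, with a 95% interval of -0.83 to 0.43 (limma adjusted p = 0.652), so a fall of the size seen for Cd68 lies outside that interval.

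Among the lysosomal members, Cd68 was lower with RA, and Laptm5 gave opposite answers on different probe sets. Cd68, a lysosomal membrane glycoprotein of macrophages, read 18.8, 52.9 and 33.9 on RA arrays and 107, 126 and 104 on control arrays. No RA value came near a control value. The log2 mean was 5.54 ± 0.45 with RA and 7.12 ± 0.22 in controls, a log2 fold change of -1.57 ± 0.29, or 2.98 times lower (limma adjusted p = 0.00162), with the RA mean under the filter level.

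Laptm5, a lysosomal membrane protein of blood cells, is read by 5 probe sets. The brightest, 1447742_at, read 279, 171 and 204 on RA arrays and 124, 208 and 141 on control arrays, and 1417721_s_at read 148, 102 and 118 against 47.8, 120 and 75.6. Their log2 fold changes of 0.21 and 0.35 did not pass (limma adjusted p = 0.595 and 0.420, each probe set above the filter tested by itself). Probe set 1436905_x_at read 60.8, 19.1 and 19.5 on RA arrays, against 161, 226 and 169 on control arrays, a log2 fold change of -2.32 (limma adjusted p = 0.000484). Probe set 1426025_s_at read 37.7, 33.6 and 129 on RA arrays and 138, 136 and 64.4 on control arrays, with RA array 3 apart from the other RA arrays (-0.94, limma adjusted p = 0.0952). The fifth, 1459841_x_at, stayed between 12.3 and 38.9 on all arrays. The mean of the 4 sets above the filter was called lower (-0.67 ± 0.21, limma adjusted p = 0.0417), so the direction of Laptm5, too, depends on the probe set.

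Ptprc encodes CD45, a phosphatase on nearly all nucleated blood cells. Its main probe set, 1422124_a_at, read 34.6, 27.5 and 11.4 on RA arrays and 45.9, 69.7 and 54.3 on control arrays. The groups did not overlap, and the log2 means were 5.23 ± 0.48 with RA and 6.29 ± 0.26 in controls (-1.05 ± 0.35, limma adjusted p = 0.0391). The RA mean lies under the filter level, and with all probe sets tested this probe set was not called (limma adjusted p = 0.0818). The call was lost without RA array 2 (-1.12 ± 0.39, limma adjusted p = 0.0604) and without RA array 3 (-0.78 ± 0.34, limma adjusted p = 0.125). Without any 1 of the control arrays Ptprc fell under the filter, since its mean of 5.76 lies just above it. Its second probe set, 1440165_at, read 9.72, 19.2 and 52.9 on RA arrays and 4.35, 6.34 and 10.9 on control arrays, also under the filter (0.62 ± 0.34 with all probe sets tested, limma adjusted p = 0.317).

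Counted by probe set, 14 of the 19 lay above the filter. Of these, 8 were called lower and 0 higher, where 11.1% of 27022 probe sets were called lower and 11.3% higher. The 8 lie in 6 genes, since C1qb and Csf1r have 2 each. Those of C1qb, Cd68, Laptm5 and Ptprc had RA means under the filter level and passed it through the control arrays. The count of 8 is therefore no support for a difference. In 11 of the 19 all RA arrays lay below all control arrays, as did 13.5% of 45037 probe sets. With all probe sets tested, 9 of the 19 were lower and 0 higher, where 6.15% of 45037 were called lower. Probe sets of 1 gene read the same RNA and are not replicates.

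**Figure D2:**
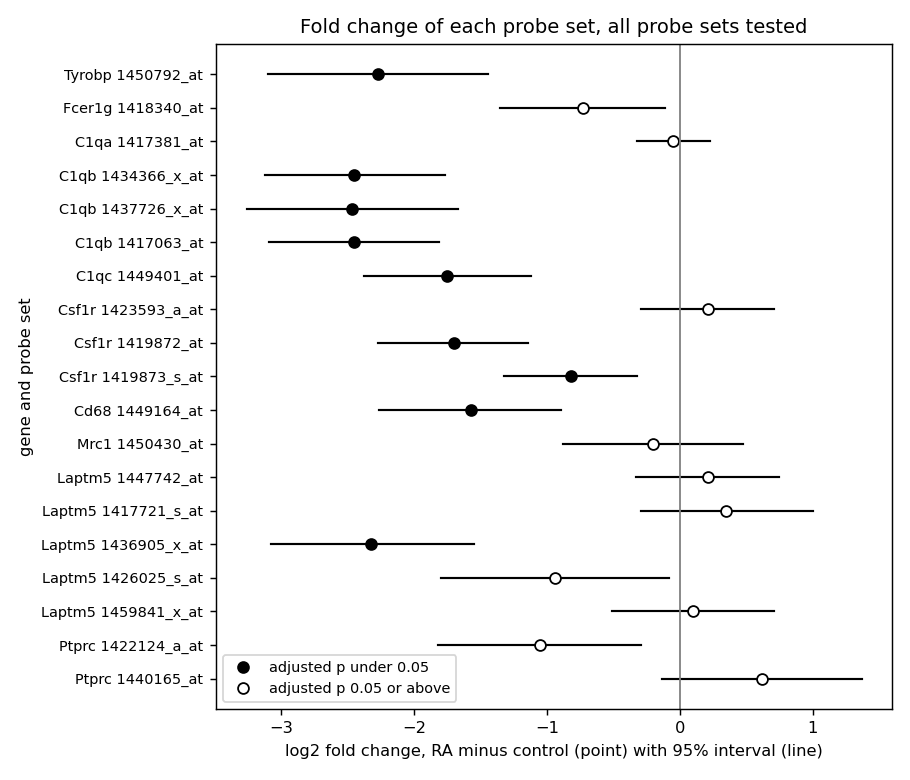
Log2 fold change, RA minus control, of each of the 19 probe sets, from the fit over all probe sets with no filter. Points are estimates, lines are 95% intervals, and filled points have an adjusted p under 0.05. The 3 probe sets of C1qb lie within 0.02 of each other, while those of Csf1r and of Laptm5 lie on both sides of 0.

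Some of the other macrophage markers were lower with RA, and more of them did not pass the test. Of 32 genes in this list 18 were tested, of which 6 were lower and 1 higher, with a median log2 fold change of -0.44. Among all tested genes 15.6% were called lower and 14.3% higher. Cd14, a co-receptor for bacterial lipopolysaccharide, was 4.03 times lower with RA (-2.01 ± 0.28, limma adjusted p = 0.000271). Cd53, a tetraspanin of blood cells, was 3.83 times lower, Ncf4, a subunit of the phagocyte oxidase, 2.66 times, and the fractalkine receptor Cx3cr1 2.60 times (limma adjusted p between 0.00101 and 0.00385). The RA means of these 4 genes lay below the filter level, so they passed it through the control arrays. The count of lower genes is thus no support for a difference. The higher gene was Mertk, a receptor kinase for the uptake of dying cells (0.64 ± 0.18, limma adjusted p = 0.0201). The count of higher genes was 0 without RA array 1, RA array 2 or control array 1, and 2 without control array 2. The summed level of the 31 genes on the array was 1560 to 1870 on RA arrays and 1960 to 2540 on control arrays. These sums did not overlap, but neither did those of the granulocyte and mast genes, of which 0 were called (678 to 699 and 810 to 857). Among markers that define the type, Adgre1, which encodes F4/80, did not pass (-0.29 ± 0.22, limma adjusted p = 0.358). Aif1, Timd4 and Cd163 read under 10 on every array. The controls' macrophage label thus rests on a part of the markers, and Spi1, the PU.1 gene, read 34.7, 83.2 and 99.0 on RA arrays and 53.2, 86.1 and 69.1 on control arrays (-0.24 ± 0.32, limma adjusted p = 0.628).

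Among genes that act downstream of the ITAM adaptors, Plcg2 alone of those tested was called. Of 16 signalling genes 10 were tested, 1 was higher and 0 lower (1 and 1 at an unadjusted p under 0.05), with a median of 0.00. The higher count is near the share of all tested genes, 14.3%, while 15.6% were lower (19.4% and 20.3% unadjusted). With no filter 13 genes of this list entered, and 1 was higher and 2 lower, where 10.0% of all genes were higher and 11.1% lower. The phospholipase gene Plcg2 was 2.04 times higher with RA (1.03 ± 0.15, limma adjusted p = 0.000357). The kinase Fyn (-0.38 ± 0.17), the phosphatase Ptpn6 (0.32 ± 0.17) and the exchange factor Vav1 (-0.41 ± 0.26) did not pass. Fyn passed without control array 3 (-0.54 ± 0.16, limma adjusted p = 0.0342). Of 16 receptors that pair with these adaptors only 4 were bright enough to test, and 0 were called by limma: Fcgr3 (-0.24 ± 0.22), Fcgr1 (0.32 ± 0.30), Trem2 (-0.33 ± 0.39) and Trem3 (-0.21 ± 0.34). At an unadjusted p under 0.05 the count was 0 as well.

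Of 20 genes of the CSF1 axis and myeloid transcription factors 16 were tested, 2 were higher and 2 lower, and the median was -0.19. These counts lie near the shares of all tested genes, 14.3% higher and 15.6% lower. The ligand gene Csf1 read 226, 207 and 220 on RA arrays and 166, 223 and 96.2 on control arrays, and did not pass (0.27 ± 0.17, limma adjusted p = 0.291). Maf, a factor of resident macrophages and other tissues, was 1.99 times lower with RA (-0.99 ± 0.15, limma adjusted p = 0.000490). Tfec and Tfe3, relatives of the lysosome regulator Tfeb, were higher (0.64 ± 0.18 and 0.43 ± 0.12, limma adjusted p = 0.0196 and 0.0211), and the cytokine receptor Csf2rb was lower (-0.93 ± 0.31, limma adjusted p = 0.0425). These 3 calls were not stable: Tfec was lost without RA array 2 or 3 or control array 2 or 3 (0.56 to 0.61). Tfe3 was lost without RA array 1 or 2 or control array 1 (0.33 to 0.41). Csf2rb was lost without RA array 2 or 3 or control array 1 or 3 (-0.86 to -0.76). Without scaling between arrays Maf (-0.74 ± 0.29), Tfe3 (0.70 ± 0.29) and Csf2rb (-0.73 ± 0.36) were not called.

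Complement genes outside C1q were lower for 7 of the 15 tested and higher for 0, with a median of -0.54, out of 30 in the list. With no filter the median was -0.37 over 26 genes. The 7 include Cd93 and C3ar1, whose RA means lay below the filter level, so they passed it through the control arrays. The count of lower genes is thus no support for a difference. The shares of all tested genes were 15.6% lower and 14.3% higher. At an unadjusted p under 0.05, 8 were lower and 1 higher, where 20.3% of all tested genes were lower and 19.4% higher. The largest fall was that of clusterin, Clu, a secreted chaperone that inhibits the terminal complex, which was 12.1 times lower with RA (-3.59 ± 0.12, limma adjusted p = 2.80e-09). Vitronectin, Vtn, which also binds the terminal complex, was 3.76 times lower, and the protease Cfi, complement factor I, 3.73 times. Calreticulin, Calr, known as a C1q receptor on the cell surface and a chaperone inside the cell, was 1.59 times lower (limma adjusted p of these 3 at most 6.81e-05). Clu, Vtn and Cfi are made by many cell types, and the cells behind these values are not known. Calr was not called without scaling (-0.26 ± 0.25). The summed level of the 26 genes on the array was 12300 to 13100 on RA arrays and 19700 to 21900 on control arrays. Most of that gap came from Clu and Calr, so the sum does not describe the list as a whole. The deposited signal of Clu was 386 to 511 on RA arrays and 3570 to 5180 on control arrays.

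Lysosomal genes, set beside Cd68 and Laptm5, fell in 9 of 17 tested and rose in 1, with a median of -0.33. For all tested genes the shares were 15.6% lower and 14.3% higher. Scarb2, a lysosomal membrane protein, was 2.40 times lower with RA (-1.26 ± 0.11), the progranulin gene Grn was at -0.62 ± 0.08 and the protease Ctsd at -0.64 ± 0.09. The legumain gene Lgmn was higher (0.95 ± 0.12, limma adjusted p of these 4 at most 0.000342). Without scaling only 1 lysosomal gene was called lower, and Grn (-0.23 ± 0.28) and Ctsd (-0.29 ± 0.29) were not called.

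**Figure D3:**
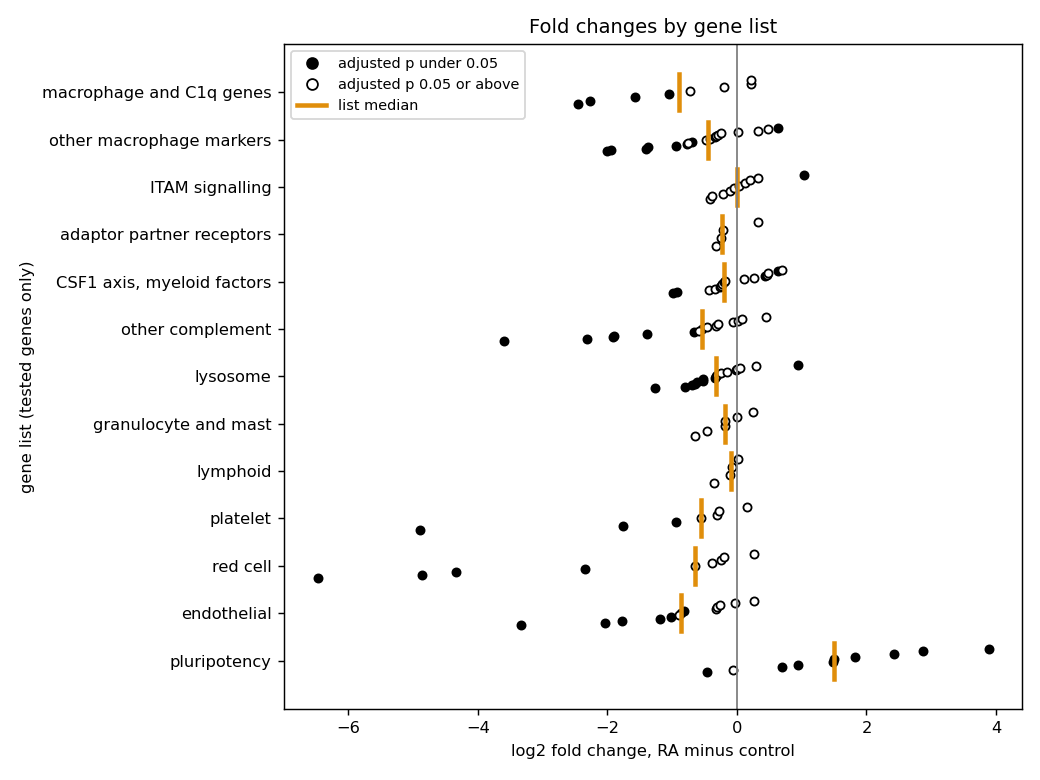
Log2 fold change, RA minus control, of the tested genes of the 13 gene lists, 1 point for each gene, with filled points for an adjusted p under 0.05 and orange bars for list medians. The macrophage and C1q genes have a median of -0.89, next to -0.44 for the other macrophage markers and 0.00 for ITAM signalling. The endothelial median, -0.87, lies near that of the members, and the red cell and platelet medians are -0.65 and -0.56. Red cell and platelet genes hold the lowest points.

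Some markers of other blood cells and of vessels were also lower with RA, where 15.6% of all tested genes were called lower and 14.3% higher. In the red cell, platelet and endothelial lists 5, 4 and 6 tested genes did not pass. The list medians were -0.65, -0.56 and -0.87 in that order, and that of the members was -0.89. Of 9 tested red cell genes 4 were lower (Hbb-y, Hbb-bh1, Hba-x and Alas2), with summed levels of 2550 to 3140 on RA arrays and 17200 to 19500 on control arrays. Of 7 tested platelet genes 3 were lower (Pf4, Ppbp and Itga2b), with sums of 509 to 578 and 2250 to 2760. Most of the control sum came from the globin genes in the red cell list and from Pf4 in the platelet list. The deposited signal of Pf4 was 41.4 to 52.2 on RA arrays and 1160 to 1970 on control arrays. The call of Itga2b was lost without control array 1 (-0.85 ± 0.29) or 2 (-0.77 ± 0.28) and without scaling. Of 13 tested endothelial genes 7 were lower, led by Cldn5, Ramp2, Kdr and Tek, with sums of 1540 to 1790 and 3040 to 3230. The RA means of Alas2, Ppbp, Cldn5 and Tek lay below the filter level, so these genes passed it through the control arrays. The counts of lower genes in these lists are thus no support for a difference. Ramp2 was not called without scaling (-0.57 ± 0.29, limma adjusted p = 0.166). Stab1 and Stab2, scavenger receptors of sinusoidal vessels, where Mrc1 is also expressed, did not pass (-0.31 ± 0.17 and -0.33 ± 0.25).

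Granulocyte and mast cell genes and lymphoid genes gave 0 calls with limma in 6 and 4 tested members, and 1 and 0 at an unadjusted p under 0.05. Gata1, which mast and red cells share, was at -0.65 ± 0.25 (called when limma was run without trend), and Cd8a at -0.36 ± 0.18. Most defining genes of these types, among them Mpo, Elane, Cpa3, Cd3e and Cd79a, lay under the filter, and the sums were 678 to 699 on RA arrays and 810 to 857 on control arrays for granulocyte and mast genes, and 470 to 604 and 574 to 580 for lymphoid genes. Of 10 pluripotency genes 8 were higher and 1 lower, where 14.3% of all tested genes were higher and 15.6% lower. Their sums were 16500 to 16900 on RA arrays and 3550 to 4180 on control arrays. The lower gene was Zfp42 (-0.46 ± 0.16, limma adjusted p = 0.049), and no pluripotency gene was called lower in 12 of 17 alternatives, among them each left-out array except control array 3. The part of each of these cell types in the macrophage result was not tested.

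The arrays differed in signal and RNA quality. The median deposited signal was between 61.7 and 65.5 on RA arrays and between 41.4 and 63.6 on control arrays, control array 3 being the dimmest, and the values had not been scaled. The ratio of 3-prime to 5-prime Gapdh signal was 34.0 on RA array 1 and between 3.06 and 4.74 elsewhere, and the actin ratio was 4.35 to 7.42 on RA arrays and 3.35 to 4.24 on control arrays. Without RA array 1 the members gave 4 lower and 0 higher calls, and without control array 3 they gave 3 and 0. Without scaling, 72.9% of all calls were higher with RA, against 47.8% with it, and the all-gene median log2 fold change was 0.26. Even so Tyrobp, C1qb and Cd68 were lower.

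**Figure D4:**
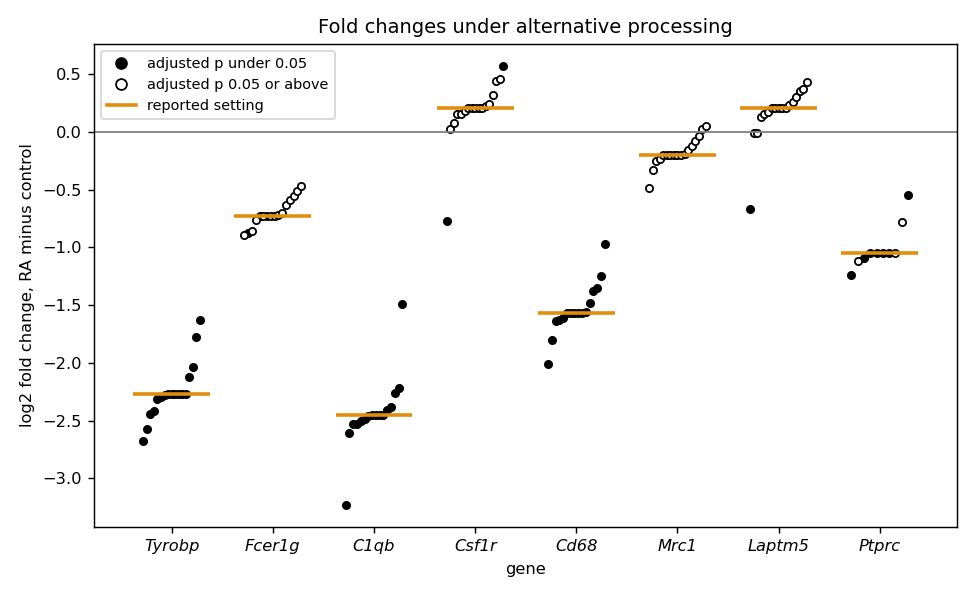
Log2 fold change, RA minus control, of the 8 tested genes under each alternative processing, 1 point for each setting in which the gene was tested, filled where the adjusted p was under 0.05, with orange bars at the reported value. Tyrobp, C1qb and Cd68 are filled throughout, and Csf1r and Laptm5 each have a filled point on the other side of 0.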

How the data were processed

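The deposited values are linear signal intensities for each probe set, 1 array for each sample, made with the Affymetrix GCOS software at default settings, per the labels. Its version is not given in the sources used here, and no detection calls were used. Probe sets were named from the platform's annotation table. The 64 control probe sets were left out, and 34945 probe sets with 1 symbol, 932 with several and 9160 with none took part in normalization.

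From these, log2(intensity + 16) was quantile-normalized. Groups were compared in R 4.3.3 using the linear models of limma 3.58.1 (eBayes with trend, two-sided, no covariates, Benjamini-Hochberg threshold 0.05). The pseudocount understates the fold of dim genes. Values are means ± SD with n = 3, and fold changes carry the SE. Only 3 arrays a group limit the precision. A summed level is the sum over a list's brightest probe sets of the normalized signal, less the pseudocount. The members and the 13 gene lists were chosen with earlier results of these data known. Named are all members, up to 4 genes of smallest p from each other list, and further genes at or under the filter. Genes named beside these (Adgre1, Mertk, Spi1, Csf1, Cd93, C3ar1, Stab1, Stab2, Zfp42) were chosen after their values were seen. The code was tested on simulated data. Promoter windows came from RefSeq, where 7 of 10 members matched. No entry was found for Tyrobp, C1qa and Csf1r. Alternatives covered scaling, pseudocount, filter, probe set choice, moderation, left-out arrays and a replicate block.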

Additional observations from a re-analysis of the deposited data

How the results depend on the processing

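Tyrobp, C1qb and Cd68 stayed lower and past the threshold in every alternative in which they were tested, at -2.68 to -1.63, -3.23 to -1.49 and -2.01 to -0.97 (C1qb and Cd68 fell under the filter at the 60th percentile). Ptprc was under the filter in 7 of 17 alternatives and lost its call in 3, which included the replicate block (-1.05, limma adjusted p = 0.069). Mrc1 ranged from -0.49 to 0.05 and was never called. The members called lower numbered 1 with the filter at the 60th percentile, 7 with the mean of the kept probe sets and 8, counted as probe sets, with every kept probe set by itself. Csf1r (-0.77) and Laptm5 (-0.67) turned to lower with the mean of probe sets, where Fcer1g (-0.73) was called too, as it was without trend and without control array 1, and 1 member, Csf1r, was called higher without RA array 1 and control array 3 together. Leaving out 1 array at a time gave 3 to 4 lower and 0 to 0 higher members, 1681 to 1951 lower genes and 1475 to 1837 higher genes. Without scaling 651 genes were called lower, and 3051 probe sets were called higher when tested by themselves. With the replicate block 3 members were lower and 0 higher, among 1949 lower and 1775 higher genes. The shared replicate numbers did not pair the arrays, since the deviations of same-numbered RA and control arrays correlated at -0.085, -0.014 and -0.027. Of 408 list counts under alternatives 56 moved by over 1.5 times or to or from 0. Of 793 values of other named genes 26 lost and 2 gained a call, and 0 called values reversed. The causes were not tested. Dim signal limits C1qa, C1qc and most receptors of the adaptors.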

Other observations

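Of the list genes other than the members, 69 lay under the signal filter. When all genes were tested, 8 of the 69 were lower with RA and 1 higher, where 11.1% of all 18193 genes were lower and 10.0% higher. Those shares include genes above the filter, so they are not a like comparison. The 8 were Btk, Cebpa, Cfb, Clec4d, Itgb2, Lcp2, Lyve1 and Tie1. The higher gene was Cfp, which encodes properdin, with 27.4, 29.8 and 83.9 on RA arrays and 10.2, 10.2 and 9.21 on control arrays (limma adjusted p = 0.0444). Itgb2, the beta chain of leukocyte integrins, read 6.2, 5.78 and 6.84 on RA arrays and 19.5, 33.5 and 23.8 on control arrays (limma adjusted p = 0.00621). Clec4d, a C-type lectin that signals through Fcer1g, read 13.5, 10.6 and 8.10 on RA arrays and 52.4, 74.5 and 60.2 on control arrays (limma adjusted p = 0.000948). The adaptor Lcp2, which acts downstream of ITAM kinases, read 17.4, 13.2 and 12.8 on RA arrays, against 62.7, 70.8 and 21.8 on control arrays (limma adjusted p = 0.0152), and the kinase Btk 10.6, 4.47 and 9.22 against 14.0, 49.6 and 34.8 (limma adjusted p = 0.0271). The myeloid and liver factor Cebpa read 12.8, 11.3 and 14.5 on RA arrays and 135, 57.0 and 45.7 on control arrays (limma adjusted p = 0.00363). Clec4d was the 1 lower gene among 16 receptors that pair with the adaptors, whose median log2 fold change was -0.04. The means of Itgb2 and Btk lay under the filter level in both groups. These genes were picked after their values were seen.

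The genes whose profile over the 6 arrays was most like the mean profile of the 8 tested members were Micu2, Sdk2, Evi5l, Cyth1 and Ak1. Their centred log2 values differed from that mean by 0.041 to 0.080 (root mean square), closer than any member itself, the members lying at 0.225 for Fcer1g to 0.781 for Tyrobp.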
